A study of Mus musculus with 12 samples.

Results

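The genes described here encode the complement and coagulation factors that the liver makes for the blood plasma. They were chosen by symbol as 36 rows of a table of 38087 genes, 20 of complement and 16 of coagulation, and all 36 had enough counts to be tested. RNA was sequenced in 12 libraries from livers of germ-free male C57BL/6J mice, animals that carry no microbiota, aged 13 to 16 weeks. A library is called a liver here, although the labels do not state that the animals behind the libraries were all different; if they were not, the p-values cover a spread between libraries that may be technical. In the ghrelin group (n = 6 libraries) each mouse had daily subcutaneous injections of 10 µg of rat ghrelin, a stomach peptide that acts on feeding and on growth hormone release, for 5 days. Mice of the PBS group (n = 6 libraries) were injected with phosphate-buffered saline on the same schedule. The label of all 12 libraries gives zeitgeber time 2, early in the light phase, and being germ-free, male and of the same strain is common to both groups, so the comparison concerns ghrelin in animals without a microbiota only.

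Complement is a cascade of plasma proteins that marks and lyses microbes. It is entered through C1q bound to antibody, through mannose-binding lectins bound to sugars, or by spontaneous turnover of C3; all routes meet at C3 and end in a pore built from C5b to C9. Coagulation is a cascade of proteases that ends in thrombin, which cuts fibrinogen into fibrin. Hepatocytes make most proteins of both cascades and release them into the plasma, while C1q comes mainly from macrophages, in liver the Kupffer cells; many of these genes also respond to inflammation as acute phase genes.

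None of the 36 genes passed the test of ghrelin against PBS livers after adjustment over all 14170 genes tested (edgeR quasi-likelihood test, Benjamini-Hochberg adjusted p under 0.05). That rule called 15 genes, 0.106% of those tested (0.0423% higher and 0.0635% lower in ghrelin livers), and 0 of 36 does not stand apart from those shares. The count of 15 depended on single libraries: it was 0 without ghrelin 1 or without ghrelin 3, and 32 without ghrelin 4. Before adjustment, p was under 0.05 for 5 of 20 complement genes, C6, C8b, C8g, C9 and Mbl1, all higher in ghrelin livers, and for 1 of 16 coagulation genes, F11, also higher. Of all genes tested, 13.4% had an unadjusted p under 0.05, 6.44% on the higher side and 6.94% on the lower side. By other tools on the same counts, DESeq2 called 2 complement genes (Mbl1 with an adjusted p of 0.00572 and C8b with 0.0284) and 0 coagulation genes, where it called 221 of the 11792 genes to which it gave an adjusted p (1.87%). Limma-voom called 0 of either list and 16 of all genes (0.113%).

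Log2 fold changes below are ghrelin over PBS with their SE and 95% interval, which is not adjusted for the number of genes. Complement genes had a median log2 fold change of 0.06 and ranged between -0.14 for C3 and 0.45 for C6, with 14 of 20 above 0. Coagulation genes had a median of 0.03 and ranged between -0.13 for F5 and 0.19 for F11, with 10 of 16 above 0. Over all genes the median was 0.00 and 7087 of 14170 were above 0. The interval lay within 0.5 on either side of 0 for 17 of 20 complement genes, all but C6, C8b and C9, and for 16 of 16 coagulation genes; the same held for 68.8% of all genes tested.

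**Figure D1:**
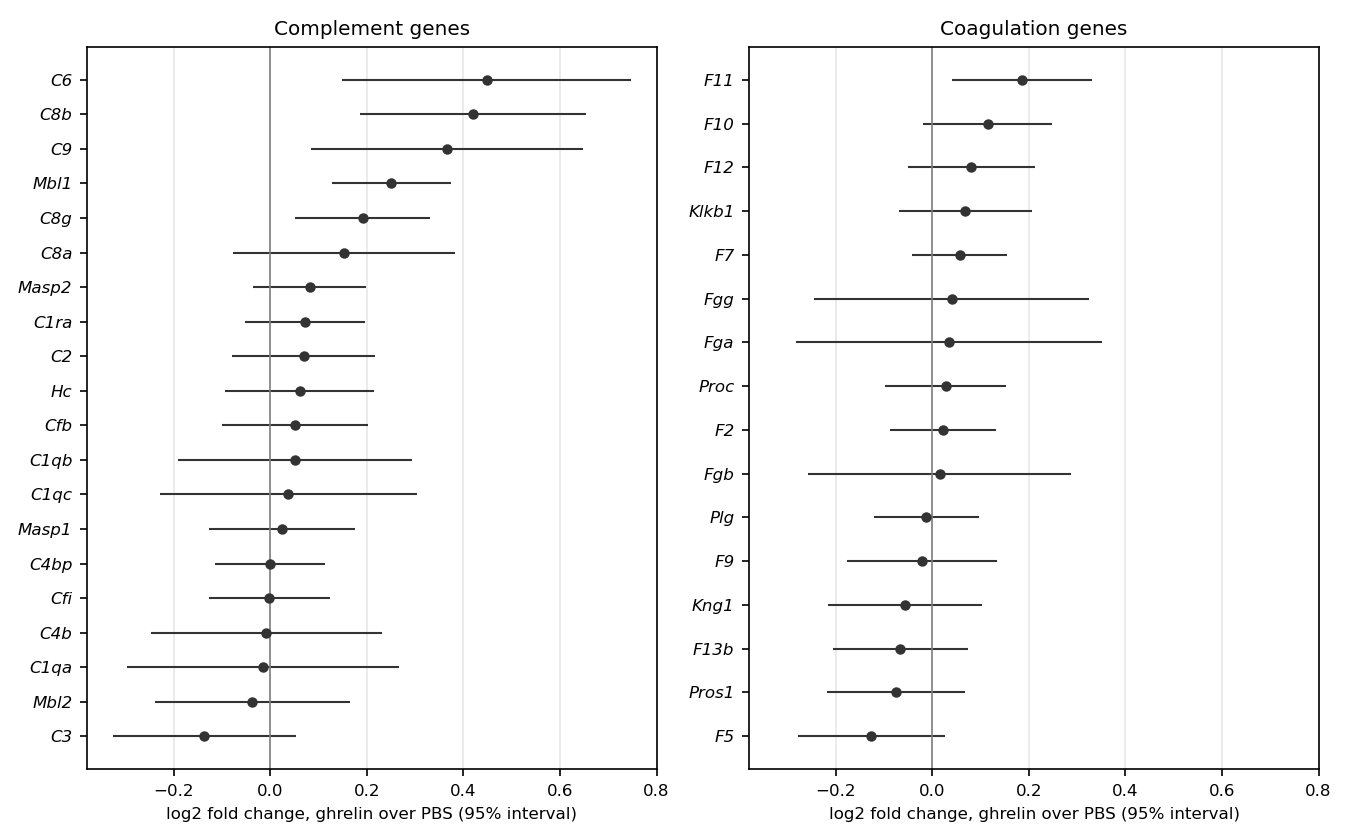
Log2 fold change of each gene, ghrelin over PBS, with its 95% interval, for 20 complement genes (left) and 16 coagulation genes (right), 6 livers per group. C6, C8b, C9, Mbl1, C8g and F11 have intervals above 0, none passed the adjusted threshold, and the intervals of the other genes include 0.

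Depth ran between 15775059 and 22302533 counts per library. Levels of a gene between libraries are given in CPM (counts per 1000000 counts, scaled by TMM). Levels of different genes are compared in TPM (the same after dividing counts by the exon length of the gene, summing to 1000000 per library). TPM is not scaled by TMM. Orders of libraries and overlaps of groups are those in CPM, and some differ in TPM. The liver label was matched by its defining markers: the 10 hepatocyte markers summed to between 112005 and 130034 CPM in ghrelin livers and between 114772 and 150724 CPM in PBS livers. Lymphocyte markers (10 genes) summed to at most 4.32 CPM in ghrelin livers and 3.99 CPM in PBS livers, and platelet markers (6 genes) to at most 5.46 CPM in ghrelin livers and 5.80 CPM in PBS livers. In whole liver, fewer cells of a type and less RNA per cell cannot be told apart.

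The 20 complement genes held between 1.85% and 2.10% of all counts in ghrelin livers (median 1.95%) and between 1.74% and 2.22% in PBS livers (median 1.96%). The 16 coagulation genes held between 2.80% and 3.45% in ghrelin livers (median 3.24%) and between 2.72% and 4.08% in PBS livers (median 2.96%). Both pairs of ranges overlapped. On the per-length scale the coagulation genes summed to 20279 TPM on average over the 12 libraries and the complement genes to 9614 TPM, and fibrinogen made up most of the coagulation sum.

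Levels per length differed widely. Among all 36 genes the fibrinogen chains Fga (mean of 12 libraries 5558 TPM), Fgg (5236 TPM) and Fgb (3938 TPM) came ahead of C3 (3443 TPM), Kng1 (1579 TPM) and Plg (1218 TPM). Next came Cfb (786 TPM), F2 (700 TPM), Cfi (638 TPM), C2 (632 TPM), C8a (560 TPM) and C9 (533 TPM). The lowest were Masp1 (19.6 TPM), C1qc (26.2 TPM), C1qb (44.4 TPM), Pros1 (46.0 TPM) and C1qa (51.1 TPM). Fga reached rank 23 and C3 rank 32 among all genes of the table by mean TPM. With the longest transcript in place of all exons, the level of 22 of 36 genes moved by more than the SD between libraries, with ratios to the level given here between 0.871 for F9 and 1.602 for Masp1, so close neighbours in this order depend on the length used.

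**Figure D2:**
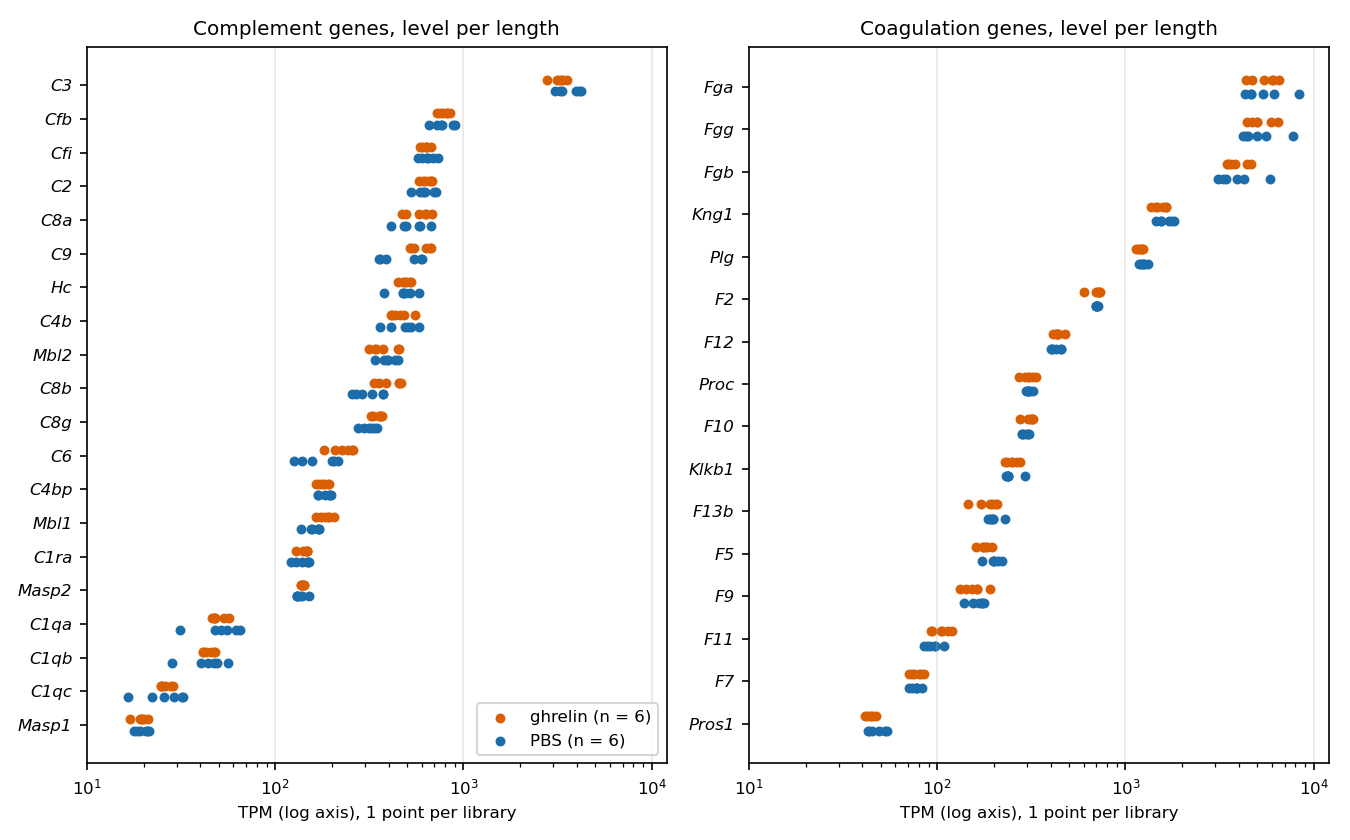
Level per length in TPM, on a log axis, of each complement gene (left) and coagulation gene (right), 1 point per library, with ghrelin livers (n = 6) drawn above PBS livers (n = 6) for each gene. C3 stands above the other complement genes and the 3 fibrinogen chains above the other coagulation genes, while the C1q chains and Masp1 are the lowest complement genes.

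Livers varied most in C6, the fibrinogen chains, C9 and C8b. Over the 12 libraries the coefficient of variation in CPM was 24.3% for C6, 20.7% for Fga, 20.6% for C9 and 20.5% for C8b. It was 3.31% for Plg, 3.53% for F2, 3.86% for F7 and 4.05% for C4bp. Its median was 11.2% over the complement genes and 7.98% over the coagulation genes, and 26 of 36 genes varied more among PBS livers than among ghrelin livers.

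Recognition by the classical pathway starts with C1q, a protein of 3 chains whose genes C1qb, C1qc and C1qa lie next to each other on the minus strand of chromosome 4 (GRCm38, 136880129 to 136898803), 3616 and 2851 bases apart. C1qa lay between 23.8 and 32.5 CPM in ghrelin livers (median 26.2) and between 17.6 and 33.9 CPM in PBS livers (median 27.7). C1qb lay between 22.3 and 27.1 CPM in ghrelin livers (median 25.6) and between 16.8 and 30.8 CPM in PBS livers (median 24.7). C1qc lay between 23.8 and 28.3 CPM in ghrelin livers (median 26.5) and between 17.2 and 32.1 CPM in PBS livers (median 26.2). For all 3 chains the PBS range enclosed the ghrelin range, and PBS 1 was the lowest of the 12 libraries. Log2 fold changes were -0.01 for C1qa (SE 0.13, 95% interval -0.30 to 0.27), 0.05 for C1qb (SE 0.11, -0.19 to 0.29) and 0.04 for C1qc (SE 0.12, -0.23 to 0.30), and without PBS 1 they were -0.11, -0.03 and -0.05.

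The C1q chains moved together across livers. Across the 12 libraries C1qb and C1qc had a Pearson r of 0.95 on the log2 CPM scale (Spearman rho 0.92, permutation p 1e-05 and 6e-05, adjusted over 24 gene pairs 6e-05 and 0.00028), and C1qc was the gene with the highest r with C1qb among 13928 genes ranked. Leaving out the 2 libraries farthest from the median, PBS 1 and PBS 2, the r was 0.90. C1qa and C1qc had an r of 0.93 and a rho of 0.87 (permutation p 5e-05 and 0.00045, adjusted 0.00015 and 0.0012), and 0.81 without those libraries. C1qa and C1qb had an r of 0.90 and a rho of 0.81 (permutation p 0.00013 and 0.00228, adjusted 0.000347 and 0.00456), which was 0.67 without PBS 1 and PBS 2, 0.48 within ghrelin livers and 0.99 within PBS livers. Per length, the ratio of C1qc to C1qb was 0.543 to 0.626 in ghrelin livers and 0.554 to 0.656 in PBS livers.

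Kupffer cells were read from 13 macrophage markers, of which 12 were tested, none was called and none was at 0 in every library. The markers summed to between 434 and 580 CPM in ghrelin livers and between 373 and 616 CPM in PBS livers. Clec4f, a receptor found on Kupffer cells, was highest and lowest in PBS 2 (93.0 CPM) and PBS 1 (55.5 CPM), the libraries that were also at the ends for C1qb. C1qb and Clec4f had an r of 0.81 and a rho of 0.61 (permutation p 0.00274 and 0.0401, adjusted 0.00438 and 0.0535), which was 0.36 without PBS 1 and PBS 2 and 0.27 within ghrelin livers, so the relation rests on those libraries.

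C1ra, a protease bound to C1q, lay between 207 and 231 CPM in ghrelin livers (median 223) and between 194 and 227 CPM in PBS livers (median 212), with a log2 fold change of 0.07 (SE 0.06, 95% interval -0.05 to 0.20). The groups overlapped in part. In CPM, PBS 1, PBS 3 and PBS 4 were below every ghrelin liver, and ghrelin 2 and ghrelin 3 were above every PBS liver. In TPM, ghrelin 5 (129 TPM) was below PBS 3 (139 TPM), and PBS 6 (151 TPM) was the highest library.

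The lectin route is opened by Mbl1 and Mbl2, 2 mannose-binding lectins that the liver secretes. Mbl1 (chromosome 14, 41151458 to 41159601, plus strand) lay between 143 and 163 CPM in ghrelin livers, with a median of 149, and between 117 and 136 CPM in PBS livers, with a median of 128. In CPM every ghrelin liver was above every PBS liver, and Mbl1 was the only member of either list whose groups did not overlap. Of all genes tested, 0.826% had groups that did not overlap in CPM. In TPM the groups of Mbl1 overlapped, with ghrelin 5 (164 TPM) below PBS 2 (170 TPM), PBS 5 (169 TPM) and PBS 6 (172 TPM). The means were 151 ± 7.85 CPM in ghrelin livers and 127 ± 8.13 CPM in PBS livers (SD, n = 6 each), a log2 fold change of 0.25 (SE 0.06, 95% interval 0.13 to 0.37). Its p of 0.000574 was the 69th smallest of all genes and came to 0.118 after Benjamini-Hochberg adjustment of the edgeR quasi-likelihood test. Over the alternatives the adjusted p ran between 0.00572 (DESeq2) and 0.233.

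Mbl2 lay between 182 and 248 CPM in ghrelin livers (median 206) and between 185 and 265 CPM in PBS livers (median 218), with a log2 fold change of -0.04 (SE 0.09, 95% interval -0.24 to 0.16). The groups overlapped throughout; the difference between the log2 fold changes of Mbl1 and Mbl2 was not tested. Across the 12 libraries Mbl1 and Mbl2 had an r of -0.15 and a rho of -0.20 (permutation p 0.633 and 0.527, adjusted 0.633 and 0.527), and 0.09 without PBS 1 and PBS 3. Per length Mbl2 was 1.76 to 2.49 times Mbl1 in ghrelin livers and 1.99 to 3.26 times Mbl1 in PBS livers.

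The lectins act through the proteases Masp1 and Masp2. Masp1 lay between 87.7 and 121 CPM in ghrelin livers (median 97.6) and between 92.5 and 103 CPM in PBS livers (median 98.1), with a log2 fold change of 0.02 (SE 0.07, 95% interval -0.13 to 0.17). Masp2 lay between 233 and 264 CPM in ghrelin livers (median 236) and between 216 and 244 CPM in PBS livers (median 226), with a log2 fold change of 0.08 (SE 0.06, 95% interval -0.03 to 0.20). Ghrelin 5 was the highest library in CPM for both proteases, while PBS 6 was the highest in TPM (21.4 TPM for Masp1 and 150 TPM for Masp2). The groups overlapped for both. Masp2 overlaps Tardbp on the opposite strand, and the strand setting of the counting is not given in the sources used here.

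C4b and C2 form the convertase of the classical and lectin routes, and Cfb that of the alternative route. C4b lay between 1170 and 1661 CPM in ghrelin livers (median 1301) and between 1119 and 1656 CPM in PBS livers (median 1425), with a log2 fold change of -0.01 (SE 0.11, 95% interval -0.25 to 0.23). The near copy C4a had 184 to 1417 counts per library where C4b had 19659 to 36547, and how the counting shared reads between the copies is not known. Cfb lay between 1067 and 1228 CPM in ghrelin livers (median 1180) and between 1005 and 1257 CPM in PBS livers (median 1099), with a log2 fold change of 0.05 (SE 0.07, 95% interval -0.10 to 0.20).

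The counts of C2 and Cfb were alike in every library. The genes lie 85 bases apart on the minus strand of chromosome 17 (GRCm38, Cfb 34856374 to 34862518 and C2 34862604 to 34898265). The count of C2 differed by at most 8 counts in any library from that of Gm20547, an annotated gene that overlaps both C2 and Cfb, and was 1.080 to 1.118 times the count of Cfb in every library. C2 lay between 1184 and 1370 CPM in ghrelin livers (median 1311) and between 1100 and 1361 CPM in PBS livers (median 1212), with a log2 fold change of 0.07 (SE 0.07, 95% interval -0.08 to 0.22). How much of this value belongs to C2 itself is not known, and sums over the complement genes hold it as counted.

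C3, on which all routes meet, was the complement gene with the lowest log2 fold change. It lay between 7515 and 9875 CPM in ghrelin livers (median 8426) and between 8140 and 10871 CPM in PBS livers (median 9640). The means were 8662 ± 900 CPM in ghrelin livers and 9522 ± 1120 CPM in PBS livers (SD, n = 6 each), a log2 fold change of -0.14 (SE 0.09, 95% interval -0.33 to 0.05). The groups overlapped, 5 of 6 ghrelin livers were under the PBS median, and the edgeR quasi-likelihood p was 0.145 (Benjamini-Hochberg adjusted 0.531).

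The regulators C4bp, which binds C4b and serves as a cofactor for its cleavage, and Cfi, the protease that cuts C3b and C4b, had log2 fold changes of 0.00. C4bp lay between 605 and 649 CPM in ghrelin livers (median 636) and between 584 and 667 CPM in PBS livers (median 630), with a 95% interval of -0.11 to 0.11 (SE 0.05). Cfi lay between 694 and 759 CPM in ghrelin livers (median 725) and between 683 and 813 CPM in PBS livers (median 711), with a 95% interval of -0.13 to 0.12 (SE 0.06). Both PBS ranges enclosed the ghrelin range.

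The terminal pathway builds the membrane pore from C5 (gene Hc), C6, C7, the C8 chains C8a, C8b and C8g, and C9, and it held the 3 highest log2 fold changes of the members. C6 lay between 319 and 537 CPM in ghrelin livers (median 419) and between 221 and 375 CPM in PBS livers (median 319). In CPM 5 of 6 ghrelin livers were above every PBS liver, and ghrelin 4 was inside the PBS range. In TPM ghrelin 2 (208 TPM) was also under the highest PBS liver (215 TPM). The means were 426 ± 75.4 CPM in ghrelin livers and 313 ± 65.0 CPM in PBS livers (SD, n = 6 each), a log2 fold change of 0.45 (SE 0.14, 95% interval 0.15 to 0.75), with an edgeR quasi-likelihood p of 0.00605 (Benjamini-Hochberg adjusted 0.215).

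C8b, the chain that joins the C8 complex to the growing pore, lay between 425 and 623 CPM in ghrelin livers (median 572) and between 336 and 490 CPM in PBS livers (median 393). Ghrelin 2 and ghrelin 4 were inside the PBS range and the other 4 ghrelin livers above it. The means were 543 ± 74.9 CPM in ghrelin livers and 406 ± 63.1 CPM in PBS livers (SD, n = 6 each), a log2 fold change of 0.42 (SE 0.11, 95% interval 0.19 to 0.65), with an edgeR quasi-likelihood p of 0.00166 (Benjamini-Hochberg adjusted 0.151). Over the alternatives the adjusted p ran between 0.0284 (DESeq2) and 0.298.

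C9, which polymerises into the wall of the pore, lay between 670 and 870 CPM in ghrelin livers (median 807) and between 463 and 769 CPM in PBS livers (median 602). The PBS livers lay apart, PBS 1, PBS 3 and PBS 4 near the lower end and PBS 2, PBS 5 and PBS 6 within the ghrelin range. The means were 789 ± 77.1 CPM in ghrelin livers and 611 ± 146 CPM in PBS livers (SD, n = 6 each), a log2 fold change of 0.37 (SE 0.13, 95% interval 0.09 to 0.65), with an edgeR quasi-likelihood p of 0.0141 (Benjamini-Hochberg adjusted 0.268).

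C8g, a lipocalin chain of C8, lay between 261 and 284 CPM in ghrelin livers (median 274) and between 207 and 267 CPM in PBS livers (median 243), with 4 of 6 ghrelin livers above every PBS liver. Its log2 fold change was 0.19 (SE 0.07, 95% interval 0.05 to 0.33), with an edgeR quasi-likelihood p of 0.0103 (Benjamini-Hochberg adjusted 0.248). C8a, the chain that enters the membrane, lay between 854 and 1228 CPM in ghrelin livers (median 1138) and between 811 and 1232 CPM in PBS livers (median 967). The groups of C8a overlapped in full, and its log2 fold change was 0.15 (SE 0.11, 95% interval -0.08 to 0.38). Hc lay between 1523 and 1678 CPM in ghrelin livers (median 1627) and between 1295 and 1823 CPM in PBS livers (median 1536), all ghrelin livers inside the PBS range, with a log2 fold change of 0.06 (SE 0.07, 95% interval -0.09 to 0.21). C7, the pore component that is not among the 36 genes and was named after its values were seen, was near the lower end of what was tested, with 1.16 ± 0.44 CPM in ghrelin livers and 1.32 ± 0.65 CPM in PBS livers (SD, n = 6 each). The log2 fold change of C7 was -0.19 (SE 0.32, 95% interval -0.88 to 0.49).

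**Figure D3:**
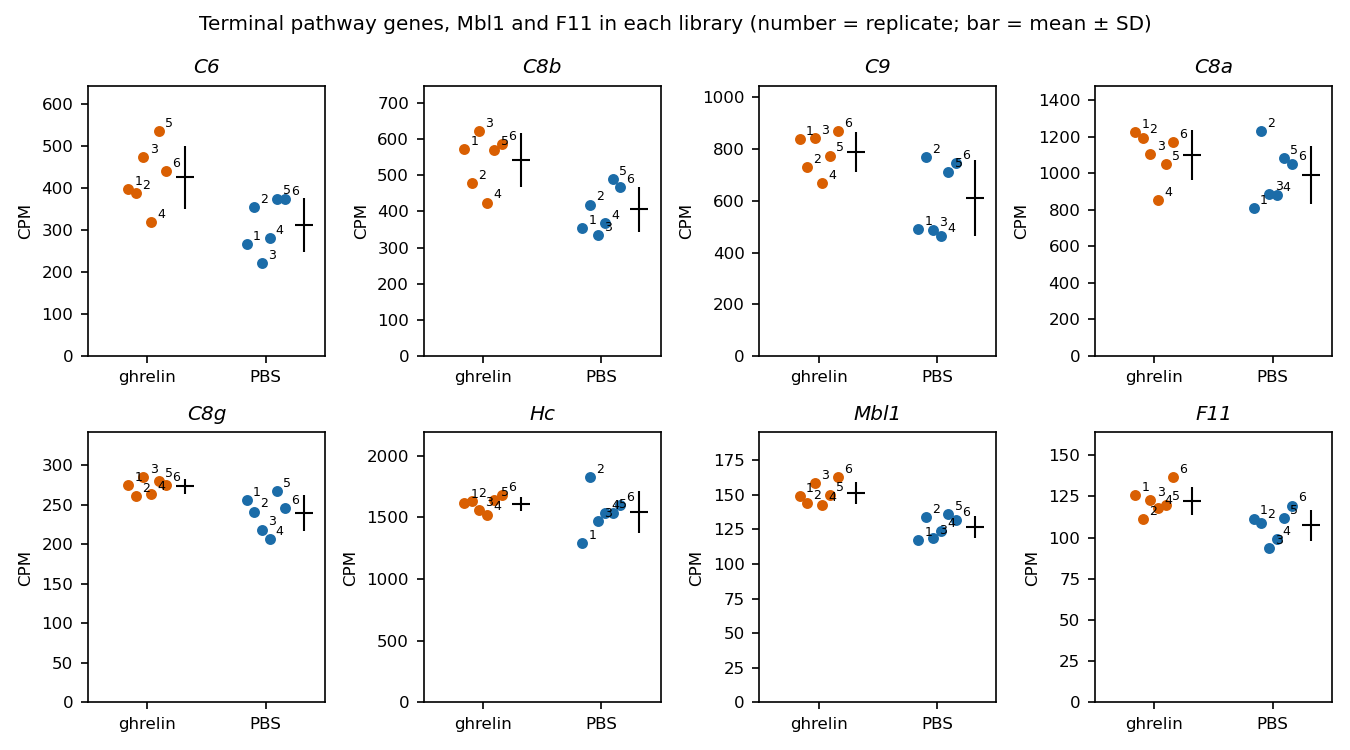
CPM of C6, C8b, C9, C8a, C8g, Hc, Mbl1 and F11 in each library, ghrelin left and PBS right in each panel, with numbered points for replicates and bars for the mean ± SD (n = 6 each). In CPM the groups do not overlap for Mbl1, and for C6 the only ghrelin liver within the PBS range is ghrelin 4 at 319 CPM. Neither holds in TPM.

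Levels of C6, C8b, C9 and Mbl1 followed each other across livers; the pairs of this and the next paragraph were picked after the values were seen, within the same family of 24, so their p-values are no independent evidence; the same holds for the pairs F11 and Klkb1, F7 and F10, and C8b and Saa1 below. C6 and C8b had an r of 0.94 and a rho of 0.94 (permutation p 2e-05 and 3e-05, adjusted 9.6e-05 and 0.00018). C8b and C9 had an r of 0.90 and a rho of 0.87 (permutation p 4e-05 and 0.00045, adjusted 0.00015 and 0.0012). C6 and C9 had an r of 0.88 and a rho of 0.87 (permutation p 0.0002 and 0.00057, adjusted 0.00048 and 0.00127). Taking each liver as its deviation from its group mean, these were 0.89, 0.84 and 0.79, so the genes also varied together within groups. Without the 2 farthest libraries they were 0.96, 0.82 and 0.93.

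C8b was also set against genes outside the pore. With Mbl1 it had an r of 0.93 and a rho of 0.93 (permutation p 5e-05 and 7e-05, adjusted 0.00015 and 0.00028), 0.88 as deviations from the group means. With F11, a coagulation protease, it had an r of 0.84 and a rho of 0.87 (permutation p 0.00041 and 0.00058, adjusted 0.000812 and 0.00127), 0.69 as deviations. By r with C8b among 13928 genes ranked, C9 held rank 31, Mbl1 rank 18 and F11 rank 97, so other genes followed C8b as closely. All these points share a library and its scaling.

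Of the C8 chains, C8b and C8g had an r of 0.83 and a rho of 0.89 (permutation p 0.00044 and 0.00032, adjusted 0.000812 and 0.0011), 0.64 as deviations, and C8g held rank 120 by r with C8b. C8a and C8b, which lie 11130 bases apart on chromosome 4 with their 3′ ends facing each other, had an r of 0.71 and a rho of 0.57 (permutation p 0.0116 and 0.0598, adjusted 0.0164 and 0.0742). C8a and C8g, on different chromosomes, had an r of 0.47 and a rho of 0.34 (permutation p 0.122 and 0.286, adjusted 0.127 and 0.298). Per length the ratio of C8a to C8b was 1.24 to 1.75 in ghrelin livers and 1.55 to 2.06 in PBS livers, with overlapping ranges.

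Hc was set against C9, C6 and C8b, also after the values were seen, and its r was highest with C9. With C9 the r was 0.70 and the rho 0.76 (permutation p 0.00656 and 0.00631, adjusted 0.00984 and 0.0101). With C6 the r was 0.58 and the rho 0.69 (permutation p 0.0459 and 0.0164, adjusted 0.058 and 0.0231), and with C8b the r was 0.51 and the rho 0.56 (permutation p 0.0886 and 0.0619, adjusted 0.101 and 0.0742). The difference between these values was not tested.

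Promoter windows of C6, C8b and C9 are shown because these genes varied together across livers. Each window holds 250 bases before and 50 bases after the start of the gene in RefSeq (GRCm38.p6), 5′ to 3′ on the strand of the gene, which is plus for all 3. Capitals mark matches, on either strand, to 3 short motifs: the C/EBP motif (TTGCNNAA), the STAT motif (TTCNNNGAA) and the interleukin-6 response element (CTGGGAA).
C6, chr15:4726960-4727259: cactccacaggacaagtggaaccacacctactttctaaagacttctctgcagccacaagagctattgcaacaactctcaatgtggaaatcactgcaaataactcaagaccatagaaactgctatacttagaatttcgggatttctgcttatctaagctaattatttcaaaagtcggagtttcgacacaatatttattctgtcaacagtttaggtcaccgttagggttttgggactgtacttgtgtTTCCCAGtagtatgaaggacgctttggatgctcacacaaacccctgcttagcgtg
C8b, chr4:104766067-104766366: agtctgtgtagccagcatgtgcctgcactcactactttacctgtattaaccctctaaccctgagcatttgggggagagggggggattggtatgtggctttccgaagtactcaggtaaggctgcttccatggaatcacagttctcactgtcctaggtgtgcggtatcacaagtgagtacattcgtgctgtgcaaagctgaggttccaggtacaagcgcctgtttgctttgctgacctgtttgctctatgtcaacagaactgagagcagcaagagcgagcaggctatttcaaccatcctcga
C9, chr15:6445096-6445395: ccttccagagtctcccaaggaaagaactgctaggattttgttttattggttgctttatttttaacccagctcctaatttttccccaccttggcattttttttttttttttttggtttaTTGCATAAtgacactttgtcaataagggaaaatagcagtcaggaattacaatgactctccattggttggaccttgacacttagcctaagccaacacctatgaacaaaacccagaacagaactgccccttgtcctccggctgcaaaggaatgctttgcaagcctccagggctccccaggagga

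C6 held the interleukin-6 response element on the minus strand at position -5 from the start, C9 held the C/EBP motif at -132, and C8b held no match. A match is a run of letters and not a shown site, and a motif with no match here can lie outside the window. Of the 36 genes, 27 had a window in the table, with 28 windows among its 32851.

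The 27 genes were counted by gene and the background by window, and no difference between them was tested. Across those 27 genes the C/EBP motif was found in 8 of 27, against 10.8% of all windows. The STAT motif was found in 7 and the interleukin-6 response element in 6, against 8.30% and 11.1% of all windows. The HNF4 motif (CAAAGTNCA) was found in F9 alone, against 1.41%, and the TATA box motif (TATAAA) in C3, Hc and Klkb1, against 13.6%. Those TATAAA matches began at position 15 after the start in C3, -239 in Hc and -132, on the minus strand, in Klkb1. They are not shown to be TATA boxes.

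In coagulation, the contact route starts with F12, prekallikrein (Klkb1) and kininogen (Kng1) and passes to F11 and F9. F11 lay between 111 and 137 CPM in ghrelin livers (median 121) and between 93.9 and 119 CPM in PBS livers (median 110), with 4 of 6 ghrelin livers above every PBS liver. The means were 122 ± 8.58 CPM in ghrelin livers and 108 ± 9.34 CPM in PBS livers (SD, n = 6 each), a log2 fold change of 0.19 (SE 0.07, 95% interval 0.04 to 0.33). Its edgeR quasi-likelihood p was 0.015 (Benjamini-Hochberg adjusted 0.271), the smallest of the coagulation genes.

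Klkb1, which cleaves F12 and frees bradykinin, lay between 330 and 385 CPM in ghrelin livers (median 362) and between 319 and 392 CPM in PBS livers (median 333), a log2 fold change of 0.07 (SE 0.06, 95% interval -0.07 to 0.21). The identifier of this row is named Gm45753 in GENCODE M21, an annotated gene that overlaps Klkb1 and Cyp4v3 on the same strand, so the row may hold reads of more than Klkb1. F11 and Gm45753 lie 7639 bases apart on the minus strand of chromosome 8, with no protein-coding gene wholly between them. That distance is to the identifier of the row and not to Klkb1 itself. F11 and the Klkb1 row had an r of 0.68 and a rho of 0.71 (permutation p 0.0135 and 0.0124, adjusted 0.018 and 0.0185), and 0.48 without ghrelin 6 and PBS 3.

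F12, the contact factor, lay between 420 and 489 CPM in ghrelin livers (median 438) and between 386 and 455 CPM in PBS livers (median 428), with a log2 fold change of 0.08 (SE 0.06, 95% interval -0.05 to 0.21). Kng1, the source of bradykinin, lay between 2335 and 3104 CPM in ghrelin livers (median 2529) and between 2437 and 2875 CPM in PBS livers (median 2756), with a log2 fold change of -0.06 (SE 0.07, 95% interval -0.22 to 0.10). The groups overlapped for both. For Kng1 the highest library was ghrelin 5 in CPM and PBS 3 in TPM (1800 TPM). The count of Kng1 was 7.29 to 9.77 times that of its near copy Kng2. F9, the factor lacking in haemophilia B, lay between 190 and 259 CPM in ghrelin livers (median 223) and between 195 and 242 CPM in PBS livers (median 231), with a log2 fold change of -0.02 (SE 0.07, 95% interval -0.18 to 0.13).

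F7, the protease that tissue factor activates, lay between 71.5 and 78.1 CPM in ghrelin livers (median 75.1) and between 68.8 and 75.7 CPM in PBS livers (median 71.8), with a log2 fold change of 0.06 (SE 0.05, 95% interval -0.04 to 0.16). F10, the protease on which the routes meet, lay between 397 and 516 CPM in ghrelin livers (median 432) and between 384 and 420 CPM in PBS livers (median 408). For F10 in CPM, 5 of 6 ghrelin livers were above every PBS liver while ghrelin 2 was inside the PBS range. F10 in TPM had ghrelin 3 (302 TPM) under the highest PBS liver (306 TPM) and ghrelin 2 (276 TPM) under the lowest (280 TPM). Its log2 fold change was 0.11 (SE 0.06, 95% interval -0.02 to 0.25), with an edgeR quasi-likelihood p of 0.0873 (Benjamini-Hochberg adjusted 0.45). F7 and F10 lie 1498 bases apart on the plus strand of chromosome 8 and had an r of 0.50 and a rho of 0.39 (permutation p 0.0938 and 0.208, adjusted 0.102 and 0.227).

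F5, the cofactor of F10, lay between 624 and 767 CPM in ghrelin livers (median 679) and between 658 and 826 CPM in PBS livers (median 754), and 5 of 6 ghrelin livers were under the PBS median. Its log2 fold change of -0.13 (SE 0.07, 95% interval -0.28 to 0.03) was the lowest of the coagulation genes, with an edgeR quasi-likelihood p of 0.0966 (Benjamini-Hochberg adjusted 0.463). F2, prothrombin, was among the steadiest genes and lay between 1602 and 1771 CPM in ghrelin livers (median 1651) and between 1577 and 1749 CPM in PBS livers (median 1619). Its log2 fold change was 0.02 (SE 0.05, 95% interval -0.09 to 0.13). F5 overlaps Gm16548 on the opposite strand. Of the other members, Hc overlaps Gm13449, Fgg overlaps Gm30097, Plg overlaps Slc22a3 and C2 overlaps Zbtb12, each also on the opposite strand. The limit given for Masp2, the unknown strand setting, holds for all of these genes.

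The anticoagulant protease Proc (protein C) lay between 358 and 435 CPM in ghrelin livers (median 394) and between 367 and 414 CPM in PBS livers (median 385), with a log2 fold change of 0.03 (SE 0.06, 95% interval -0.10 to 0.15). Its cofactor Pros1 (protein S) lay between 88.2 and 106 CPM in ghrelin livers (median 91.6) and between 90.3 and 112 CPM in PBS livers (median 97.8), with a log2 fold change of -0.08 (SE 0.07, 95% interval -0.22 to 0.07). The groups overlapped for both genes.

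F13b, the carrier chain of the factor that crosslinks fibrin, lay between 215 and 265 CPM in ghrelin livers (median 246) and between 241 and 283 CPM in PBS livers (median 248), with a log2 fold change of -0.07 (SE 0.07, 95% interval -0.21 to 0.07). Plg, plasminogen, the precursor of the enzyme that dissolves fibrin, lay between 2218 and 2455 CPM in ghrelin livers (median 2262) and between 2285 and 2393 CPM in PBS livers (median 2319). Its log2 fold change was -0.01 (SE 0.05, 95% interval -0.12 to 0.10), and its highest library in TPM was 1.15 times its lowest. The ghrelin range of Plg enclosed the PBS range.

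Fibrinogen is made of 3 chains whose genes lie side by side on chromosome 3 (GRCm38): Fgg at 83007724 to 83015049 and Fga at 83026076 to 83033627 on the plus strand, and Fgb at 83040141 to 83049863 on the minus strand. Fga lay between 6663 and 10667 CPM in ghrelin livers (median 8777) and between 6873 and 12618 CPM in PBS livers (median 7659). Fgb lay between 6675 and 8796 CPM in ghrelin livers (median 7813) and between 6402 and 11240 CPM in PBS livers (median 6957). Fgg lay between 4664 and 6702 CPM in ghrelin livers (median 5777) and between 4595 and 8174 CPM in PBS livers (median 5000). PBS 4 was the highest of the 12 libraries for all 3 chains, while PBS 1, PBS 5 and PBS 6 were among the lowest, so the PBS group held both ends for Fgb and Fgg.

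The log2 fold changes of the chains were 0.03 for Fga (SE 0.15, 95% interval -0.28 to 0.35), 0.02 for Fgb (SE 0.13, -0.26 to 0.29) and 0.04 for Fgg (SE 0.13, -0.24 to 0.32). Without PBS 4 they were 0.18, 0.16 and 0.19. The 3 chains together held between 1.83% and 2.51% of counts in ghrelin livers (median 2.28%) and between 1.76% and 3.12% in PBS livers (median 2.00%).

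Levels of the chains followed each other across livers. Fgb and Fgg had an r of 0.99 and a rho of 0.97 (permutation p 1e-05 and 1e-05, the smallest these permutations can give, adjusted 6e-05 and 0.00016), and Fgg was the gene with the highest r with Fgb. Fga and Fgg had an r of 0.96 and a rho of 0.95 (permutation p 1e-05 and 2e-05, adjusted 6e-05 and 0.00016), and Fga and Fgb an r of 0.95 and a rho of 0.92 (permutation p 1e-05 and 2e-05, adjusted 6e-05 and 0.00016). Without the 2 farthest libraries, PBS 4 among them in each pair, the values were 0.98, 0.97 and 0.97. Per length the ratio of Fgg to Fgb stayed between 1.27 and 1.39 in ghrelin livers and between 1.28 and 1.35 in PBS livers, a coefficient of variation of 2.56% over the 12 libraries. The ratio of Fga to Fgb was 1.26 to 1.68 in ghrelin livers and 1.36 to 1.45 in PBS livers, and ghrelin 5 had the highest.

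Promoter windows of the fibrinogen chains are shown because the chains varied together. Windows and capitals are as for C6, C8b and C9, and Fgb is read on its minus strand.
Fga, chr3:83025903-83026202, plus strand: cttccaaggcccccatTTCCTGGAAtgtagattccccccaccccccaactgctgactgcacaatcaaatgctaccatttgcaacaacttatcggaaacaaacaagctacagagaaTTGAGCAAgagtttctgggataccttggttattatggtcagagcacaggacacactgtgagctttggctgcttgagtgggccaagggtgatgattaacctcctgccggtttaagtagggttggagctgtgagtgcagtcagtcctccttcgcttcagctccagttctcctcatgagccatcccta
Fgb, chr3:83049814-83050113, minus strand: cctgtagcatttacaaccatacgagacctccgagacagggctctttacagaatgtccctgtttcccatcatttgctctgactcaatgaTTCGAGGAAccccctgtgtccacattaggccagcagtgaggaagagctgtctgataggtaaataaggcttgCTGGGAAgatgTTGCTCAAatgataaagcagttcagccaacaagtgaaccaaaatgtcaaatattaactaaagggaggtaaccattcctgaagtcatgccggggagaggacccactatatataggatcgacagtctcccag
Fgg, chr3:83007474-83007773, plus strand: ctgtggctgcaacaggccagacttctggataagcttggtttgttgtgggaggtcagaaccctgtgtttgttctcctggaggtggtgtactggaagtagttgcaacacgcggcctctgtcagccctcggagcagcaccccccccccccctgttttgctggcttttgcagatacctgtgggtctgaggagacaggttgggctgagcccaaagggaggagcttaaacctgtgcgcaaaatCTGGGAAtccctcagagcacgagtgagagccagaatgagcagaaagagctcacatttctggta

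Fga and Fgb each held a C/EBP match, at -135 and -80, and a STAT match further out, at -234 and -162. Fgb also held the interleukin-6 response element at -91. Fgg held that element at -13 and no match to the C/EBP or STAT motif.

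Fibrinogen is an acute phase protein, and Saa1, serum amyloid A, is the classic acute phase transcript of mouse liver. Saa1 lay between 41.6 and 697 CPM in ghrelin livers and between 43.3 and 1225 CPM in PBS livers, with PBS 3, PBS 4, ghrelin 4 and ghrelin 5 the highest libraries. Its log2 fold change was -0.91 (SE 0.90, edgeR quasi-likelihood p 0.324, Benjamini-Hochberg adjusted 0.699). Fgb and Saa1 had an r of 0.79 and a rho of 0.77 (permutation p 0.00095 and 0.0051, adjusted 0.00163 and 0.00874), 0.76 without PBS 4 and PBS 6 and 0.78 within ghrelin livers. C8b and Saa1 had an r of -0.53 and a rho of -0.55 (permutation p 0.0746 and 0.0667, adjusted 0.0895 and 0.0763). Their r was -0.66 as deviations from the group means, -0.71 within ghrelin livers and -0.63 within PBS livers.

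**Figure D4:**
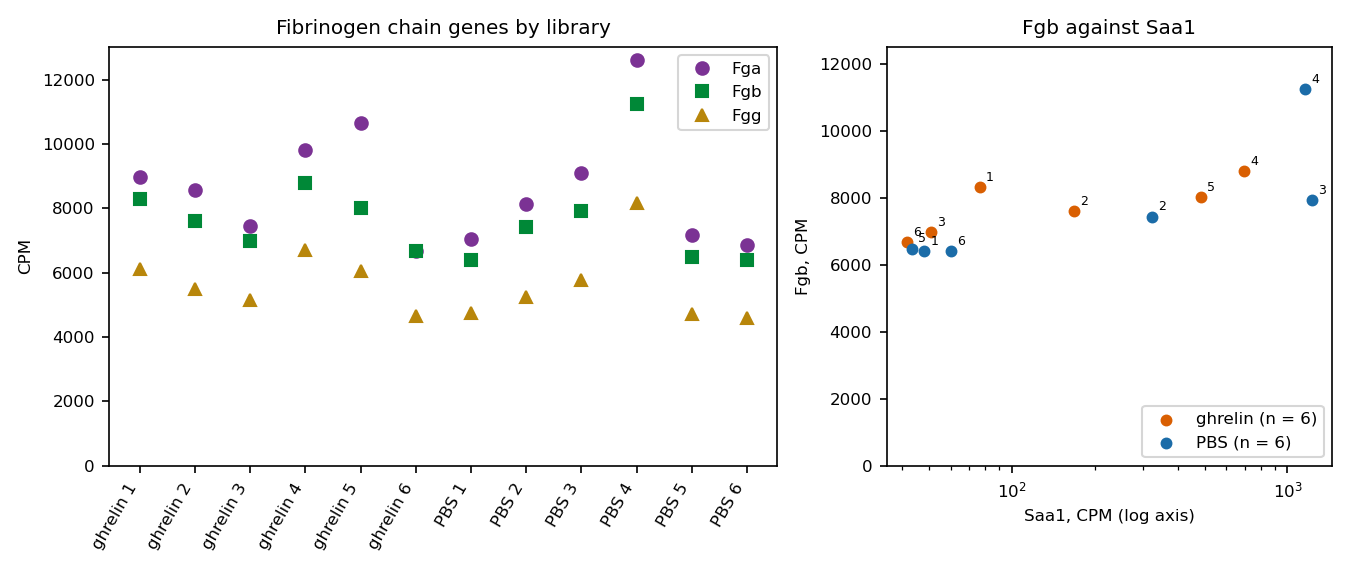
Left, CPM of Fga, Fgb and Fgg in each library, ghrelin livers first. Right, CPM of Fgb against CPM of Saa1 (log axis), with numbered points for replicates (n = 6 each). PBS 4 is the highest library for all 3 chains, at 12618, 11240 and 8174 CPM, and also among the highest for Saa1.

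Taking every liver as its deviation from its group mean, the 36 genes gave 630 pairs with a median r of 0.07. The 190 pairs of complement genes had a median r of 0.33 and the 120 pairs of coagulation genes one of 0.14. The highest r, 0.99, belonged to C2 and Cfb, whose counts were alike in every library, and the lowest, -0.86, to C4b and F13b. The 10 pairs among C6, C8a, C8b, C8g and C9, a group not fixed in advance and without Hc, had a median of 0.67. The 3 pairs of fibrinogen chains had a median of 0.96, and the 15 pairs between those groups one of -0.50, with all 15 below 0. Hc, also of the terminal pathway, had an r of 0.02 with Fga, 0.04 with Fgb and -0.05 with Fgg. Values below 0 with Fga, Fgb and Fgg were not particular to pore genes. F11 had -0.70, -0.64 and -0.66 and C1ra -0.52, -0.59 and -0.63, while C3 had 0.77, 0.68 and 0.66.

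**Figure D5:**
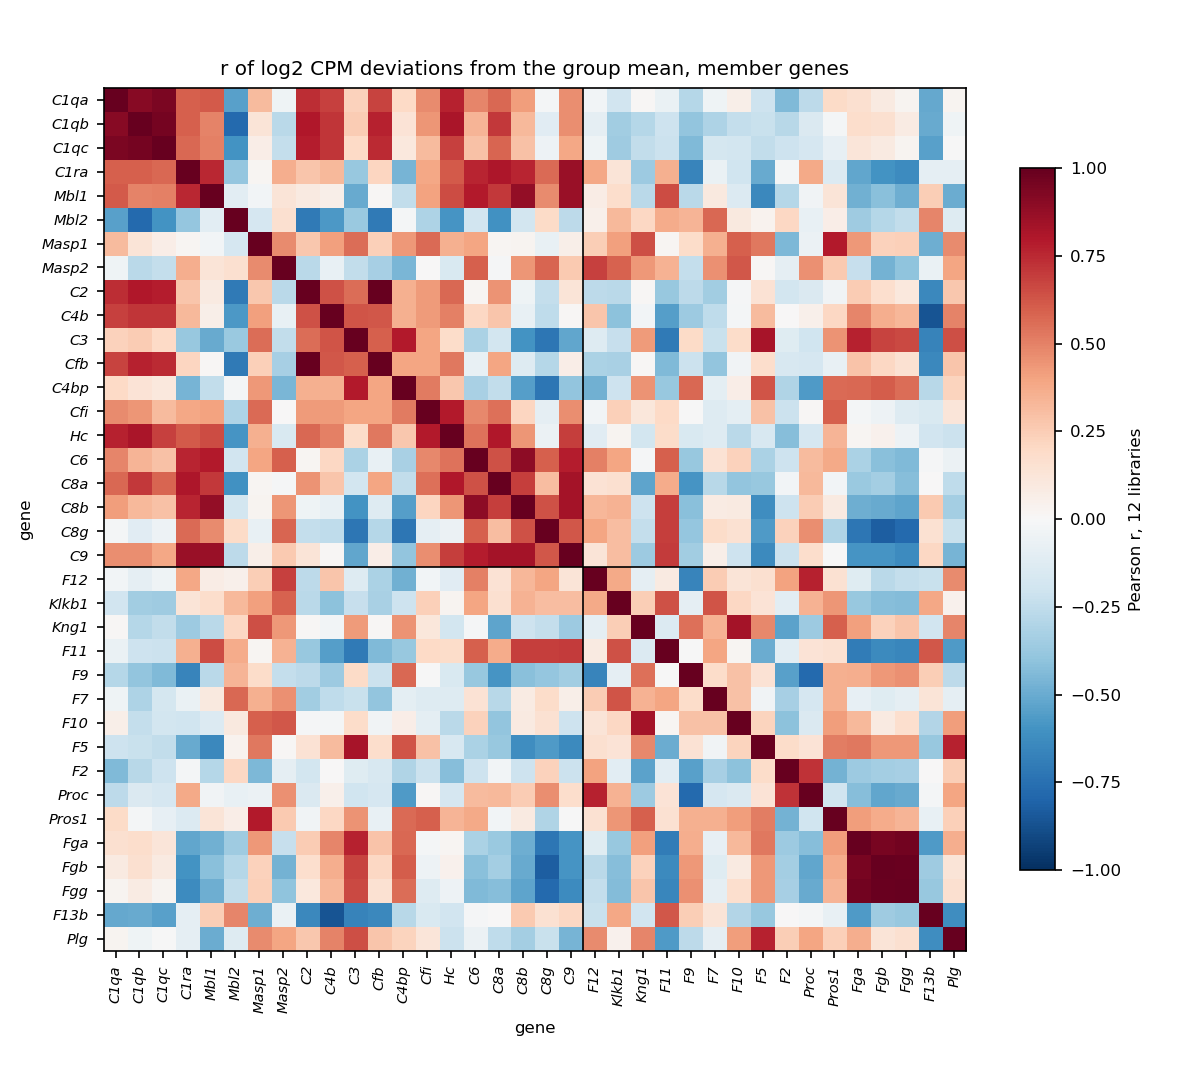
Pearson r of log2 CPM deviations from the group mean over 12 libraries for each pair of the 36 genes, complement genes before the black line and coagulation genes after it, red positive and blue negative. The 3 fibrinogen chains form a red block, the C1q chains another, and C6, C8b, C9 and Mbl1 are red with each other and blue with the fibrinogen chains.

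Other genes of the pathways did not pass the test either. Of 37 further complement genes 28 were tested, with 0 called, 11 log2 fold changes above 0 and a median of -0.04. Among the smallest p-values were those of Cd55, a cell surface inhibitor of the convertases, with a log2 fold change of -0.24 (SE 0.09, p 0.0195), and of C4a with 0.74 (SE 0.36, p 0.0548). Of 36 further genes of coagulation and fibrinolysis 30 were tested, with 0 called, 19 above 0 and a median of 0.02.

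F3, tissue factor, the trigger of coagulation, had the smallest p of that list. It lay between 2.11 and 3.36 CPM in ghrelin livers and between 1.10 and 2.04 CPM in PBS livers, with no overlap, a log2 fold change of 0.81 (SE 0.18) and an edgeR quasi-likelihood p of 0.000346 (Benjamini-Hochberg adjusted 0.103, and 0.0095 by DESeq2). Ggcx, the carboxylase that F2, F7, F9, F10, Proc and Pros1 depend on, had 94.9 ± 5.63 CPM in ghrelin livers and 84.5 ± 4.96 CPM in PBS livers (SD, n = 6 each), a log2 fold change of 0.17 (SE 0.06, edgeR quasi-likelihood p 0.00901, Benjamini-Hochberg adjusted 0.236).

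Hepatocyte transcription factors, which act upstream of many of these genes, had 13 of 13 tested, 0 called, 5 above 0 and a median of -0.09. Among the smallest p-values were those of Onecut1 with a log2 fold change of -0.84 (SE 0.38, p 0.0402) and of Nr5a2 with -0.15 (SE 0.07, p 0.0509). Of 21 acute phase genes all were tested, 0 were called, 3 were above 0 and the median was -0.22, with Crp at -0.18 (SE 0.07, p 0.018), Socs3 at 0.71 (SE 0.37, p 0.0696) and Lcn2 at -1.42 (SE 0.79, p 0.0913). Neutrophil and monocyte markers (8 genes, 4 tested, 0 called, all 4 below 0) summed to between 2.18 and 6.41 CPM in ghrelin livers and between 5.45 and 10.8 CPM in PBS livers, and their part in the values of acute phase genes was not tested.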

How the data were processed

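Total RNA of liver was made into 12 stranded libraries after depletion of ribosomal RNA, per the labels' protocols, and the authors deposited raw counts per gene, whole numbers that were not normalised. The submitters' processing notes name the aligner STAR 2.4.0i and the build mm10; for the counting tool, its annotation and its strand setting no source used here gives a name or value. Groups and replicate numbers come from titles and treatment labels.

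The members and lists were chosen with earlier results of these data known. Genes were filtered with filterByExpr (minimum count 10, minimum total 15), which left 14170, scaled by TMM and compared by the quasi-likelihood test of edgeR 4.0.16 in R 4.3.3, two-sided, with Benjamini-Hochberg adjustment over all of them and calls at 0.05. The SE is the absolute log2 fold change over the square root of F, and the interval covers 95%. TPM used the union of exons in GENCODE M21. Correlations used log2 CPM (prior count 2) over 12 libraries with 100000 permutations, two-sided, for 24 pairs, 12 of them added after the values were seen. Every member was to be named, with full statistics where the unadjusted p was under 0.05; of each other pathway list the 3 genes with the smallest p were to be named, of which some are not reported here, and of cell type markers only sums, with Clec4f and Saa1. C7 was named after its values were seen; 1 of the added pairs, with a gene outside the lists, is not given. Promoters are RefSeq windows. Alternatives were other scalings, filters, DESeq2 1.42.0, limma-voom (limma 3.58.1), a replicate block and each library left out. The test was checked on simulated counts.

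The numbers that the groups share were checked for pairing: the correlation of deviations between same-numbered libraries ran between -0.081 and 0.272, and the numbers were not used as pairs. In all 66 pairs of libraries, within and between groups, counts differed by at least 10.8 times the variance of counting error. Depth was 15775059 to 22302533 counts, and limits from depth cover counting error only.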

Additional observations from a re-analysis of the deposited data

Results flagged for a closer look

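A library stood far from the other 5 of its group in 6 of 72 groups checked (36 genes in ghrelin and in PBS livers), by the gap to its nearest neighbour as a share of the whole range of the group; chance alone flags about 1 in 20, or 3.6 of 72. Ghrelin 5 was the high library for Masp1 at 121 CPM (next 98.6), for Masp2 at 264 CPM (next 242) and for F10 at 516 CPM (next 433). These gaps are those in CPM. In TPM ghrelin 5 was at 21.2 for Masp1 (next ghrelin liver 20.2) and at 324 for F10 (next 319). For Masp2 ghrelin 5 was at 137 TPM, in a ghrelin range of 137 to 142 TPM. PBS 4 was the high library for Fgb at 11240 CPM (next 7936) and for Fgg at 8174 CPM (next 5765). PBS 5 was the low library for F9 at 195 CPM (next 229).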

How the results depend on the processing

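The number of genes called over all genes was 15, against 14 to 16 with other scalings, 63 with no count filter, 9 with robust estimation, 16 with limma-voom, 221 with DESeq2 and 0 to 32 when each library was left out in turn. It was 0 when either ghrelin 1 or ghrelin 3 was left out, 5 for PBS 3, 6 for ghrelin 6, 9 for ghrelin 2, 23 for PBS 6, 24 for PBS 5 and 32 for ghrelin 4. With the replicate number as a block it was 58, and 0 members were called; 3 of 6 libraries correlated best with the library of their own number. Complement genes called were 0 in every alternative but DESeq2, which called 2, and coagulation genes called were 0 throughout. The cause was not tested.

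Of the 36 members, 22 kept the sign of their log2 fold change under all 22 alternatives, C6, C8b, C8g, C9, Mbl1 and F11 among them, and 14 with values near 0 did not. Upper quartile scaling gave 0.00608 for C4b, 0.0141 for C4bp, 0.0126 for Cfi and 0.00244 for Plg. Leaving the top 50 genes out of the scaling gave 0.00325 for C4bp and 0.00203 for Cfi, and a mean of at least 1 CPM gave 0.00689 and 0.00565. The replicate block gave 0.00786 for C1qa and 0.00042 for C4bp, and limma-voom 0.00348 for C1qa, 0.00019 for C4bp and 3.7e-05 for Cfi. With libraries left out in turn, the log2 fold change ran between -0.108 and 0.0597 for C1qa, -0.0302 and 0.133 for C1qb, -0.0474 and 0.117 for C1qc, -0.0675 and 0.0547 for C4b, -0.0177 and 0.0169 for C4bp, -0.0153 and 0.0366 for Cfi, and -0.0804 and 0.0278 for Mbl2. It ran between -0.0366 and 0.0621 for Masp1, -0.0654 and 0.0241 for F9, -0.000573 and 0.0553 for Proc, -0.0264 and 0.00251 for Plg, -0.0299 and 0.182 for Fga, -0.0285 and 0.157 for Fgb, and -0.0097 and 0.185 for Fgg. The r of Mbl1 and Mbl2 was 0.29 within ghrelin livers and 0.0916 without the 2 farthest libraries. Over the same alternatives, 13 to 19 of 20 complement genes and 7 to 11 of 16 coagulation genes had a log2 fold change above 0, with medians of 0.03 to 0.10 and of -0.01 to 0.05.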
